A study of Mus musculus with 4 samples.

Results

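The genes of fatty acid synthesis were examined in 4 lung tumors of male KP mice, which form the whole series and a single group labelled Control. The 10 genes were chosen by symbol, as enzymes of the pathway and its regulator Srebf1, and all 10 were found among the 39017 genes of the count table, each in 1 row. KP mice on a C57BL/6 background carry floxed Trp53 alleles, and tumors were started by 1500 units per mouse of a lentivirus that expresses Cre recombinase from the PGK promoter, which is active in most cell types. Tumors were dissected 22 weeks and 5 days later and dissociated, and polyadenylated RNA of the whole cell suspension was sequenced, with immune and stromal cells included. The genotype label says heterozygous (fl/wt) and names no gene, and WT stands in the column names of the log2 values. Control mice could be wild type or heterozygous for floxed Slc2a1 per the study's methods, so the Slc2a1 genotype of these tumors is not settled here. The age of the mice was not given, and nothing says whether the 4 tumors came from 4 mice, so the spread below is that between these libraries.

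Fatty acid synthesis turns citrate that leaves the mitochondria into fat. Acly cleaves citrate to acetyl-CoA, Acss2 makes acetyl-CoA from acetate, Acaca carboxylates it to malonyl-CoA, and Fasn joins these units to palmitate with NADPH that enzymes such as Me1 provide. Elovl6 lengthens palmitate to stearate, Elovl1 makes very long chains, and Scd1 and Scd2 place a double bond to give monounsaturated fatty acids, while the transcription factor Srebf1 is known to drive most of these genes. In the lung the pathway is best known from alveolar type 2 cells, which build surfactant phosphatidylcholine from palmitate and pack it in lamellar bodies.

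Libraries held between 8151613 and 8799007 counts. Values are given as CPM, the count per 1000000 of the TMM-scaled library size, and 3 counts, the most that a count of 0 allows, corresponded to 0.330 to 0.370 CPM. The markers of alveolar type 2 cells were abundant in all 4 libraries, with a mean of 24720 CPM for Sftpc. All 6 epithelial markers were also above the detection filter (a mean of at least 1 CPM, which 14225 genes passed). The counts of every pair of libraries differed by more than sampling, with a chi-square of at least 17.5 per gene on average. In bulk RNA, fewer cells of a type and less RNA per cell cannot be told apart.

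The 10 genes were all detected, and their mean levels lay between 13.1 CPM for Acss2 and 3335 CPM for Scd1. Together they held 0.712% ± 0.0937 of all counts (SD, n = 4), with 0.587% in tumor 1 (95% Wilson interval 0.582 to 0.592%), 0.716% in tumor 2 (0.710 to 0.721%), 0.815% in tumor 3 (0.808 to 0.821%) and 0.729% in tumor 4 (0.724 to 0.735%). These intervals cover counting error only. The desaturases Scd1 and Scd2 supplied most of these counts, and tumor 1 was the lowest of the 4 in total.

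To compare genes with each other, levels were divided by the merged exon length of each gene. On this scale, reads per kilobase per 1000000, Scd1 stood highest with 682 ± 216 (SD, n = 4) and ranked 22 among the 14225 genes, followed by Scd2 with 237 ± 23.7 and Elovl1 with 195 ± 86.9. Me1 followed with 148 ± 38.9, Acly with 94.2 ± 13.4 and Fasn with 58.4 ± 17.2. The regulator Srebf1 had 15.3 ± 3.82, and the lowest were Acaca with 7.21 ± 2.50, Elovl6 with 6.09 ± 5.32 and Acss2 with 1.29 ± 0.394. Between neighbours in this order, the mean within-tumor log2 difference was smaller than its SD for Scd2 and Elovl1 (0.38 ± 0.75), Elovl1 and Me1 (0.32 ± 0.64) and Acaca and Elovl6 (0.59 ± 1.90), and it exceeded its SD for the other 6 neighbouring pairs. Merged exons of Acaca (17074 nt) and Acss2 (10163 nt) are far longer than the longest transcripts (9513 and 3609 nt), so the levels per kilobase of these genes are low estimates. With the longest transcript as the length, Elovl1 moved above Scd2 and the rest of the order stayed as given.

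**Figure D1:**
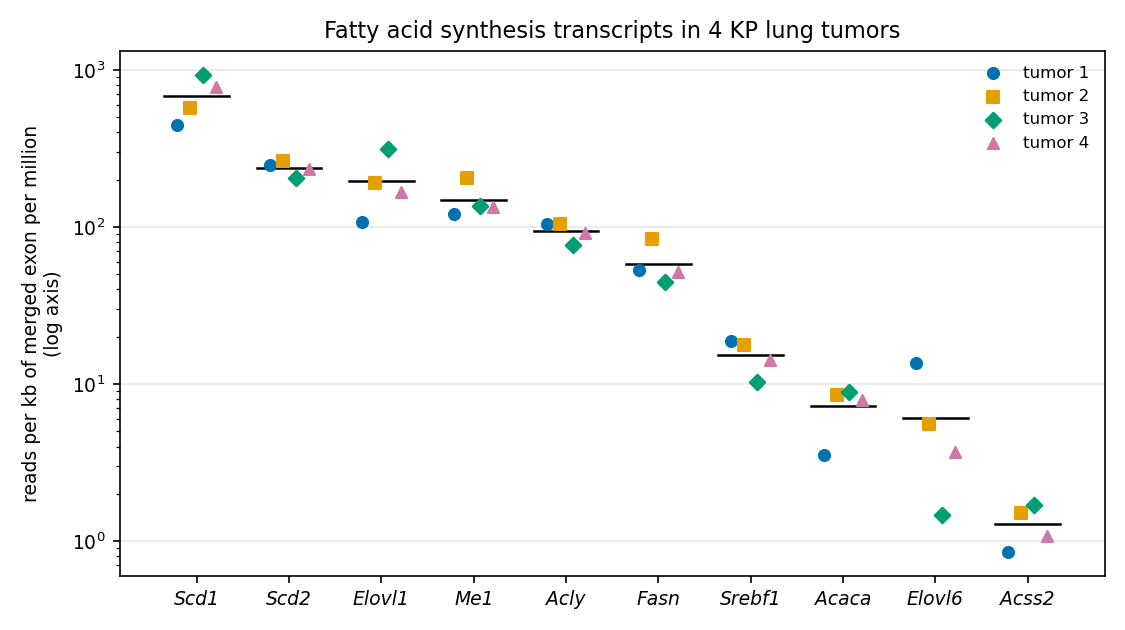
Level of each gene per kilobase of merged exon, in reads per kilobase per 1000000 on a log axis; points are the 4 tumors and bars their means. Scd1 is highest with a mean of 682, Acss2 lowest with 1.29, and the points of Elovl6 are the most widely spaced.

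All 10 genes differed between tumors by more than counting noise (chi-square test against the Poisson spread expected at equal levels, Benjamini-Hochberg adjusted p under 0.05), where 76.7% of all tested genes did. At such depth this test responds to small differences, and with 1 library per tumor it cannot separate tumors from library preparation. The size of the spread is therefore given by the SD of log2 CPM over the tumors. Its median was 0.42 for the 10 genes against 0.29 for all tested genes and 0.25 for the 10269 genes with a mean of at least 10 CPM. The highest tumor was more than 2-fold above the lowest for 5 of the 10 genes, Elovl6, Elovl1, Acaca, Scd1 and, at 2.00-fold, Acss2, where 28.5% of all tested genes passed that fold.

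**Figure D2:**
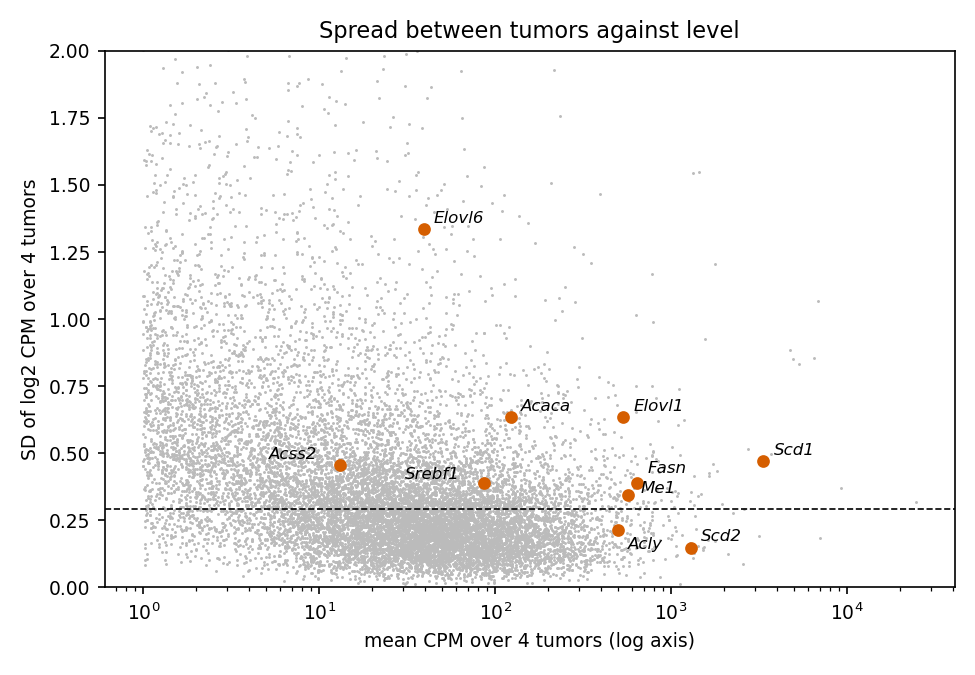
SD of log2 CPM over the 4 tumors against mean CPM on a log axis, with all tested genes in gray (184 genes lie above the axis), the 10 genes in orange and the median of all tested genes, 0.29, as a dashed line. Elovl6 lies far above the line with an SD of 1.34, and Scd2 and Acly lie below it.

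At the entry of the pathway, Acly (ENSMUSG00000020917, chr11:100476353-100528000, minus strand, GRCm38) had 550, 554, 404 and 481 CPM in tumors 1 to 4. These values span 1.37-fold with an SD of log2 CPM of 0.21, and the lowest is that of tumor 3. Acss2 (ENSMUSG00000027605), the enzyme for acetate, had 8.69, 15.4, 17.4 and 10.9 CPM from 79 to 141 counts. Per kilobase Acly was above Acss2 in 4 of 4 tumors, with a mean log2 difference of 6.22 ± 0.60 (SD, n = 4). The size depended on the length used, with 4.98 for the longest transcript and 5.28 with no length. The exact two-sided sign-flip permutation test gave p = 0.12 here and for all 9 gene pairs compared, also after Benjamini-Hochberg adjustment. That is the smallest p that 4 tumors allow, so no pair could pass 0.05. The count of Acss2 is uncertain, since it overlaps 5 annotated genes and shares near-identical stretches with Ggt7, Gss and Acss2os.

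Acaca (ENSMUSG00000020532, chr11:84129672-84401651, plus strand), which makes malonyl-CoA, had 60.1 CPM in tumor 1 and 145, 152 and 136 CPM in tumors 2 to 4. Tumor 1 stood apart for it, with a gap to the nearest tumor of 0.874 of the whole log2 range, above Dixon's 95% critical value for 4 samples, which 5.86% of all tested genes exceeded. None of the other 9 genes had a tumor apart, but with total counts as the scale Me1 had one too. Relative to the epithelial marker list of the same tumor, tumor 1 was still the lowest for Acaca, but its gap no longer passed the limit. Acacb, the isoform known for restraining fatty acid oxidation, had 6.93, 13.0, 19.4 and 7.49 CPM. The mean log2 difference per kilobase of Acaca over Acacb was 2.60 ± 0.54 (SD, n = 4), with Acaca above in 4 of 4 tumors. It was 3.31 with the longest transcript as the length.

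Fasn (ENSMUSG00000025153, chr11:120805846-120824547, minus strand) had 584, 914, 489 and 567 CPM, highest in tumor 2 and 1.87-fold lower in tumor 3. Me1 (ENSMUSG00000032418), the cytosolic malic enzyme, was also highest in tumor 2, with 460, 792, 520 and 511 CPM. The centered log2 values of Fasn and Me1 differed by a root mean square of only 0.15, and each had tumor 2 above the other tumors, which lay close together. Per kilobase Fasn exceeded Acaca by 3.06 ± 0.70 on the log2 scale (SD, n = 4), and the difference was largest in tumor 1 (3.92) and smallest in tumor 3 (2.32). With the longest transcript as the length, the mean difference was 2.34. Me1 exceeded G6pdx, the NADPH-producing entry enzyme of the pentose phosphate pathway, by 1.85 ± 0.36 in 4 of 4 tumors. G6pdx itself had 105, 133, 159 and 107 CPM, and its count is uncertain because it overlaps Ikbkg on the other strand.

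The desaturases lie in 1 cluster, with Scd4 between them: Scd1 (ENSMUSG00000037071) at chr19:44394455-44407879 on the minus strand and Scd2 (ENSMUSG00000025203) at chr19:44293674-44306864 on the plus strand. Scd1 had 2178, 2803, 4560 and 3798 CPM in tumors 1 to 4, a 2.09-fold range. Scd2 had 1358, 1426, 1126 and 1274 CPM, a 1.27-fold range. Tumors 3 and 4 had more Scd1 and less Scd2 than tumors 1 and 2, and the SD of log2 CPM was 0.47 for Scd1 and 0.15 for Scd2. The ratio of Scd1 to Scd2 per kilobase was accordingly 1.79, 2.20, 4.52 and 3.33, with a mean log2 difference of 1.47 ± 0.60 (SD, n = 4). Relative to Fasn, which makes the chains that the desaturases act on, Scd1 was higher by 3.53 ± 0.74 in 4 of 4 tumors, most in tumor 3 (4.38). The other mouse desaturases of this family were near the detection floor, with a mean of 0.408 CPM for Scd3 and 1.37 CPM for Scd4.

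The elongases had opposite extremes. Elovl1 (ENSMUSG00000006390, chr4:118428093-118432953, plus strand) had 294, 515, 858 and 459 CPM, lowest in tumor 1 and highest in tumor 3. Elovl6 (ENSMUSG00000041220, chr3:129532355-129638495, plus strand) had 87.9, 35.5, 9.38 and 23.8 CPM from 799, 306, 76 and 200 counts, highest in tumor 1 and lowest in tumor 3. Its 9.37-fold range and SD of 1.34 placed it at rank 455 of 14225 genes by spread, the largest of the 10 genes, where counting alone gives an SD of about 0.109. Its mean of 39.2 ± 34.2 CPM (SD, n = 4) became 22.7 without tumor 1. The ratio of Elovl1 to Elovl6 per kilobase was 7.89, 34.2, 216 and 45.5 in tumors 1 to 4, and the mean log2 difference was 5.33 ± 1.95 (SD, n = 4). Elovl1 overlaps Cdc20 on the other strand, which had at most 390 counts. Transcripts of Elovl6 share near-identical stretches with 19 other genes, of which the most abundant had up to 1868 counts. The count of Elovl6 is therefore uncertain.

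**Figure D3:**
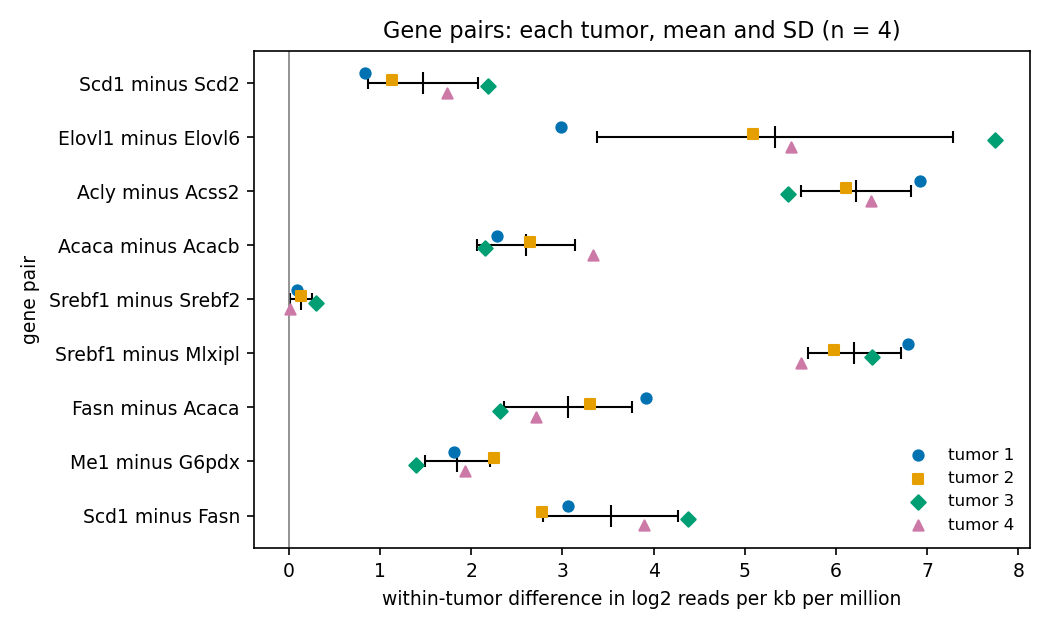
Within-tumor differences in log2 reads per kilobase per 1000000 for 9 gene pairs; points are tumors, ticks the means and bars the SD (n = 4). Elovl1 minus Elovl6 spans 2.98 to 7.74, whereas Srebf1 minus Srebf2 stays between 0.01 and 0.30.

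Srebf1 (ENSMUSG00000020538, chr11:60199089-60222581, minus strand) had 105, 100, 58.2 and 80.2 CPM, with the lowest value in tumor 3. Srebf2, the related factor best known for cholesterol genes, had 126, 117, 60.2 and 101 CPM and was lowest in the same tumor. Per kilobase their difference was small, 0.13 ± 0.12 on the log2 scale (SD, n = 4). Its sign depended on the length: Srebf1 was above in 4 of 4 tumors with merged exons, in 2 of 4 with the longest transcript (0.02), and in 0 of 4 in CPM with no length (-0.22). Mlxipl, which encodes the carbohydrate-sensing factor ChREBP, had only 0.880, 1.51, 0.617 and 1.55 CPM, and Srebf1 exceeded it by 6.20 ± 0.51 per kilobase. Srebf1 overlaps Rai1 on the other strand and 1 stretch is near-identical between these genes. Rai1 had up to 716 counts.

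Across the 10 genes, the lowest CPM was always that of tumor 1 or tumor 3, and the highest that of tumor 1, 2 or 3. Tumor 3 had the highest CPM for Acaca, Scd1, Elovl1 and Acss2, 4 of the 10 genes, where it was highest for 30.2% of all tested genes. It had the lowest CPM for Acly, Fasn, Scd2, Elovl6 and Srebf1, 5 of the 10 genes, where it was lowest for 32.5% of all tested genes. Tumor 1 was lowest for Acaca, Scd1, Elovl1, Me1 and Acss2, also 5 of the 10 genes, where it was lowest for 30.4% of all tested genes. Tumor 2 was highest for Acly, Fasn, Scd2 and Me1, 4 of the 10 genes, where it was highest for 20.4% of all tested genes, though with total counts tumor 1 was the highest for Acly and Scd2. These counts are small and were not tested. The mean log2 CPM over the 10 genes was 7.91, 8.25, 7.91 and 7.95 in tumors 1 to 4.

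The closest patterns among the 10 genes were those of Acly and Scd2, whose centered log2 CPM differed by a root mean square of 0.06, and Acly and Srebf1, with 0.15. Elovl1 was near Acss2 (0.23) and Scd1 (0.28). Outside the pathway, the genes most like Scd1 over the 4 tumors were Hdac8 (0.021), Hnrnph3 (0.030), Trim30a (0.043), Btf3l4 (0.049) and Tex15 (0.051), out of 3868 genes searched. Those most like the mean of the 10 genes were Ptpra, Pigb, Slc29a3, Rnf214 and Sc5d, with 0.124 to 0.130. With 4 tumors many genes come close to any pattern, and these names are a description only.

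**Figure D4:**
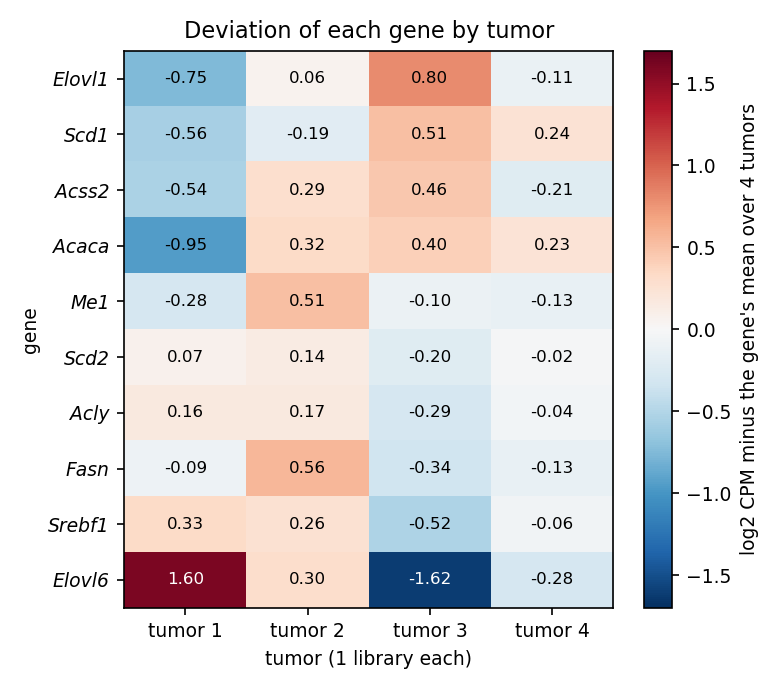
Log2 CPM of each gene minus its mean over the 4 tumors, by tumor (red above, blue below the mean), ordered by tumor 3. Elovl1, Scd1, Acss2 and Acaca are above their means in tumor 3 and below them in tumor 1, and Elovl6 runs the other way, from 1.60 in tumor 1 to -1.62 in tumor 3.

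These directions held with DESeq2 size factors. With total counts only, the highest tumor of Acly and Scd2 changed from 2 to 1. Relative to the mean of the epithelial list, which was 9.20, 8.44, 8.26 and 8.49 log2 CPM in tumors 1 to 4, the lowest tumor changed from 3 to 1 for Acly, Fasn, Scd2 and Srebf1, and the highest tumor of Srebf1 changed from 1 to 2. For Elovl6, Scd1, Elovl1, Acaca, Me1 and Acss2 the highest and the lowest tumor stayed the same under every one of these scalings. Not every marker of the epithelial list was higher in tumor 1, since Cdh1 was nearly level over the 4 tumors.

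The sequences before the start sites of these genes are shown for Elovl1 and Elovl6, the pair with opposite extremes, and for Acly and Fasn, which supply and make the palmitate. They are RefSeq sequences of GRCm38.p6, written 5′ to 3′ on the strand of the gene. Windows were found for 8 of the 10 genes, but not for Scd1 and Scd2. Capitals mark CCAAT boxes (CCAAT) and GC boxes (GGGCGG), searched on both strands within 250 bases before the start, where -1 is the last base before it.

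Elovl1, chr4:118427843-118428092, plus strand: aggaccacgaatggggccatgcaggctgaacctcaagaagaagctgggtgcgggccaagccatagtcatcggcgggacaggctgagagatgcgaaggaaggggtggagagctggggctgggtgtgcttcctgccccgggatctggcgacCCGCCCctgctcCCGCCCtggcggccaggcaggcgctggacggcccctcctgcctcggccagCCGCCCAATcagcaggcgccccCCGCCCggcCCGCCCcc

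Elovl6, chr3:129532136-129532345, plus strand: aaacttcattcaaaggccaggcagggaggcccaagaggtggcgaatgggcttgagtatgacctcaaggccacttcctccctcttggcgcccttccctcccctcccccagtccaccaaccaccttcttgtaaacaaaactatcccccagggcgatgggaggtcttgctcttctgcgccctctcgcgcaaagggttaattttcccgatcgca

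Acly, chr11:100528001-100528250, minus strand: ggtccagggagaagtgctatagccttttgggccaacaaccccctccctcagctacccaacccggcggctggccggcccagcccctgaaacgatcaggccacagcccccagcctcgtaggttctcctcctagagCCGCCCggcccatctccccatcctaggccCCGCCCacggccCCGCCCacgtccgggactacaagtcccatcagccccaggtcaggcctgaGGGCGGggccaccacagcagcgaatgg

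Fasn, chr11:120824548-120824797, minus strand: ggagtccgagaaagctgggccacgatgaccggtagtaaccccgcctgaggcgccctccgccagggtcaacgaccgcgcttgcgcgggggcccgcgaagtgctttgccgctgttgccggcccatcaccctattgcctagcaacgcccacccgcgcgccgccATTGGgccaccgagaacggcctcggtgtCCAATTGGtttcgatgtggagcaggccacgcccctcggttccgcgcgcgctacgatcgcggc

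The Elovl1 window shown held 5 GC boxes and 1 CCAAT box at -35, which overlaps the GC box at -39. Another Elovl1 window, chr4:118429451-118429700, held 2 GC boxes and no CCAAT box. The Elovl6 window held neither, and its bases closest to the start are left out above because the GENCODE gene begins within them. The Acly window held 4 GC boxes, at -117, -88, -76 and -27, and the Fasn window 3 CCAAT boxes, at -90, -62 and -59, of which the last 2 overlap. A CCAAT box was found in 6 of the 12 windows of these genes and in 33.8% of all 32851 windows, and a GC box in 7 of 12 and 32.7%. The sterol regulatory element letters TCACNCCAC were in 0 of the 12 windows of these genes and in 1.05% of all windows, and the E-box CACGTG in 0 of 12 and 6.02%. A match or its absence describes the letters in the window and nothing about binding.

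The wider lipid pathway was followed in 9 lists with 105 genes outside the 10, of which 97 passed the detection filter and 86 differed between tumors beyond counting noise, read against 76.7% of all tested genes. For the supply of acetyl-CoA and malonyl-CoA, 8 of 9 tested genes did. Acss3, a mitochondrial acyl-CoA synthetase, had 16.3, 26.7, 2.22 and 18.0 CPM and was lowest in tumor 3, while the mitochondrial acetate enzyme Acss1 had 39.4, 65.5, 87.5 and 86.8 CPM. Citrate synthase Cs had 194, 284, 252 and 216 CPM. All 5 tested genes of the NADPH list were highest in tumor 3, where 30.2% of all tested genes were, among them Pgd with 192, 191, 332 and 169 CPM and Me2 with 32.8, 30.7, 42.9 and 22.6 CPM. For Idh1, with 558, 528, 559 and 407 CPM, tumors 1 and 3 were almost level.

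Among the other elongation genes, 8 of 10 passed the filter and 8 of these differed beyond counting noise. The highest per kilobase were Hacd3, a dehydratase of the elongation cycle, with a mean of 72.5, and Elovl5, which lengthens polyunsaturated chains, with 70.5. Elovl5 had 168, 325, 231 and 269 CPM and Hacd3 139, 231, 237 and 178 CPM. Elovl7 had 108, 110, 66.8 and 70.6 CPM, so it was lower in tumors 3 and 4, whereas Elovl3 had 0 counts in all 4 libraries. Of the other desaturases 6 of 7 passed and all 6 differed. Fads1, which makes arachidonate, had 52.0, 95.9, 94.5 and 64.2 CPM, and the ceramide desaturase Degs1 had 181, 207, 268 and 195 CPM.

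For fatty acid activation and binding, 8 of 10 genes passed and 7 of these differed. The fatty acid binding protein Fabp5 had 1088, 461, 587 and 385 CPM and Fabp4 77.2, 6.97, 5.68 and 11.1 CPM, both highest in tumor 1. Acsl4 and Acsl5, which attach CoA to fatty acids, were lowest in tumor 1, with means of 1008 ± 138 and 743 ± 148 CPM (SD, n = 4). For Acsl4, tumors 1 and 4 were almost level, with 890 and 897 CPM. For the regulators 11 of 14 tested genes differed, with Rxra, a nuclear receptor partner, at 85.9, 47.4, 39.7 and 41.4 CPM, Mbtps1, a protease that activates SREBPs, at 155, 158, 113 and 148 CPM, and Mbtps2, which makes the next cut, at 19.4, 40.3, 37.1 and 36.5 CPM.

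In glycerolipid and phosphatidylcholine assembly, 17 of 18 tested genes differed beyond counting noise. Lpcat1, which remodels surfactant phosphatidylcholine, had a mean of 281 per kilobase, near the 237 of Scd2, with 904, 1385, 1623 and 1291 CPM. Choline kinase Chka had 198, 219, 415 and 294 CPM, so both genes were lowest in tumor 1 and highest in tumor 3, as Scd1 was. Dgat2, which completes triglycerides, had 33.7 CPM in tumor 1 and 7.61 to 20.1 CPM in the others, and Agpat1 had 85.1, 52.5, 38.1 and 49.8 CPM, both highest in tumor 1.

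In cholesterol synthesis and uptake, 16 of 18 tested genes differed beyond counting noise, and tumor 3 was lowest for 10 of 18, against 32.5% of all tested genes. Sqle, which encodes squalene epoxidase, had 65.2, 60.2, 26.7 and 42.2 CPM, whereas Hmgcs1 stayed between 203 and 245 CPM. In fatty acid oxidation 8 of 11 tested genes differed, and their median SD of log2 CPM was 0.15, below that of the synthesis genes. Acadl had 196, 179, 223 and 199 CPM, Hadha 174, 186, 209 and 191 CPM, and Hadhb 46.2, 51.1, 72.6 and 68.7 CPM.

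Markers of other cells were read beside these values. The 10 alveolar type 2 markers, all detected, summed to 35573 CPM in tumor 1 and 63193 to 67418 CPM in the others, and Lamp3 had 420, 2263, 2515 and 1867 CPM. However, 2 of the 10 were lowest in tumor 3, Sftpb with 8261, 11840, 6601 and 10400 CPM and Abca3 with 876, 1134, 759 and 1066 CPM. The 8 macrophage markers summed to 433, 440, 1308 and 673 CPM, and Chil3, an alveolar macrophage gene, had 121, 159, 775 and 355 CPM. All 8 were highest in tumor 3, where 30.2% of all tested genes were. The 6 pan-leukocyte markers summed to 526, 832, 812 and 724 CPM. Of these, 5 of 6 were highest in tumor 3, against 30.2% of all tested genes, although the sum was highest in tumor 2. Scd1 and Elovl1 thus were lowest in the tumor with the lowest alveolar type 2 sum and highest in the tumor with the highest macrophage sum. The alveolar type 2 sum was highest in tumor 4. The club and ciliated sum was also lowest in tumor 1 and highest in tumor 3. So was the mean log2 CPM of the pan-leukocyte list, with 5.02, 5.36, 6.10 and 5.42. The part of any of these cell types in these levels was not tested.

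The 6 epithelial markers summed to 4542 CPM in tumor 1 and 2710 to 2895 CPM in the others. Tumor 1, which had the most Elovl6, was highest for 5 of the 6, where it was highest for 31.4% of all tested genes. Krt19 had 457, 154, 172 and 187 CPM. The exception was Cdh1, which had the highest mean of the list. It was nearly level, with 842, 887, 846 and 876 CPM, and lowest in tumor 1. Only Epcam and Cldn7 were lowest in tumor 3, where 32.5% of all tested genes were. The part of epithelial cells in the Elovl6 level was not tested. Fibroblast markers summed to 301 to 531 CPM, endothelial markers to 227 to 303 CPM and proliferation genes to 522 to 749 CPM. Club and ciliated markers summed to 53.9 CPM in tumor 1 and 549 to 907 CPM in the others. Adipocytes are rich in fatty acid synthesis enzymes, and of 8 adipocyte markers Plin1, Lep, Cfd and Pck1 had 0 counts in all 4 libraries, Adipoq had at most 0.123 CPM and Retn at most 0.116 CPM. The summed adipocyte list, 9.87 to 17.6 CPM, came mostly from Lipe, with 15.1, 9.06, 16.0 and 13.3 CPM.

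**Figure D5:**
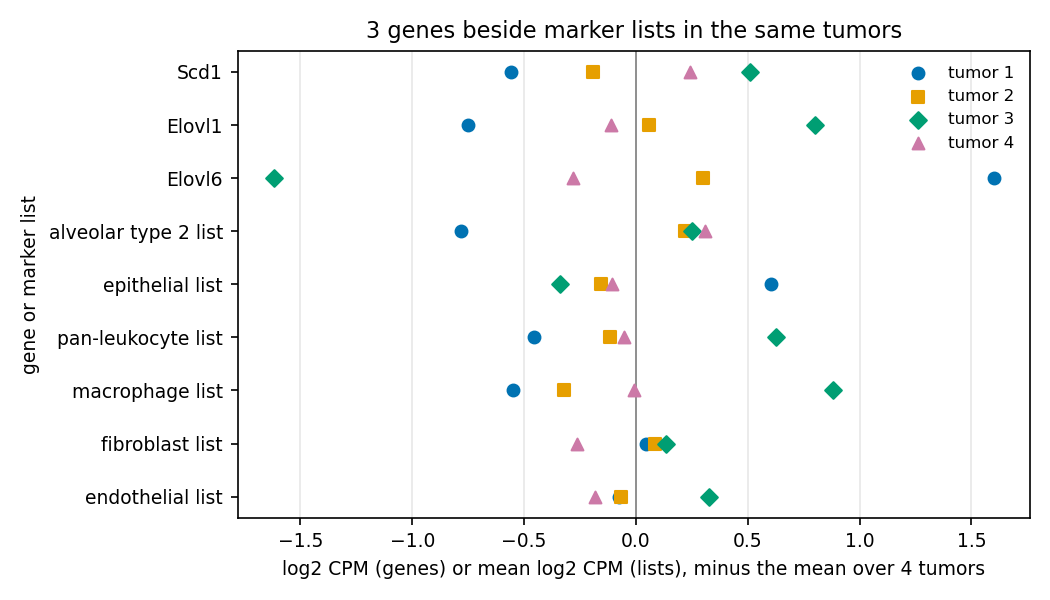
Log2 CPM of Scd1, Elovl1 and Elovl6 and mean log2 CPM of 6 marker lists, each minus its mean over the 4 tumors. Elovl6 and the mean of the epithelial list are highest in tumor 1 and lowest in tumor 3. Scd1, Elovl1, the macrophage list and the pan-leukocyte list are lowest in tumor 1 and highest in tumor 3.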

How the data were processed

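RNA of 4 lung tumors was sequenced as single-end reads of stranded polyadenylated libraries made from 500 ng of total RNA. Per the submitters' processing notes, reads were trimmed with cutadapt 1.4.2, aligned to mm10 with HISAT2 and counted per gene with featureCounts 1.4.4; the strand setting and the annotation release are not given in the sources used here. The deposited counts are raw and were not scaled by the authors, and all 156068 values of the combined table equalled those of the tables of the separate tumors. The deposited log2 table holds log2 normalized counts that the authors made with TMM and voom, and served as an alternative. The methods of the study also filter genes of low expression, by another rule than that used here.

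Library sizes of 8151613 to 8799007 counts were scaled by TMM (edgeR 4.0.16, R 4.3.3). For log2 CPM, counts were raised by 0.5 and library sizes by 1. Genes with a mean of at least 1 CPM were tested (14225 genes) for spread between tumors, with a Poisson chi-square statistic on 3 degrees of freedom and Benjamini-Hochberg adjustment; it was checked on simulated data. Gene lengths, positions and overlaps came from GENCODE M21 (GRCm38), which holds 37693 of the 39017 gene IDs with 99.8% of counts. Merged exon length sets each level per kilobase. Near-identical copies are annotated transcripts that share at least 80 nt at 97% identity or more (BLAST 2.17.0). Promoter windows came from RefSeq (GRCm38.p6).

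There is 1 group, so no groups were compared. Gene pairs were compared within tumors by exact two-sided sign-flip permutation tests. Intervals are Wilson intervals at 95% and, as reads had no molecular identifiers, cover counting error only. The alternatives were DESeq2 1.42.0 size factors, total counts, other filters, a prior count of 2, the longest transcript or no length, centering on the epithelial list, the deposited log2 table and leaving out each tumor. The genes and lists were chosen with earlier results of these data known; 177 list entries were matched, 6 of them by gene ID. Named were all 10 genes, the genes of the pairs, up to 2 genes per list with the highest mean CPM and up to 2 with the largest SD among those with a mean of at least 10 CPM, and the 5 nearest patterns. Further genes (Scd3, Scd4, Elovl3, Cldn7, Abca3 and the adipocyte markers at or near 0) were named after their values were seen. Some genes that this rule selects, and other alleles of the mouse model, are not reported here.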

Additional observations from a re-analysis of the deposited data

Results flagged for a closer look

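A tumor was set apart where its gap to the nearest of the others exceeded Dixon's 95% critical value as a share of the whole range, which chance passes in about 1 of 20 results. Of 38 results tested 4 passed, where chance gives 1.90, and all 4 concern tumor 1. The 38 results are not independent, since all come from the same 4 libraries and many share genes. Whether more passed than chance allows was therefore not tested. Log2 CPM of Acaca was 5.91 in tumor 1 and 7.08 to 7.25 in the others. The mean log2 CPM of the fatty acid activation and binding list was 7.62 in tumor 1 and 7.11 to 7.17 in the others. That of the alveolar type 2 list was 10.47 in tumor 1 and 11.47 to 11.56 in the others, and that of the club and ciliated list 2.38 in tumor 1 and 4.29 to 4.68 in the others. The activation list holds Fabp4 and Fabp5, which were both highest in tumor 1. Whether the low alveolar type 2 level of tumor 1 has a part in its low Acaca was not tested.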

How the results depend on the processing

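Of 173 values recomputed under alternatives, 167 were classed as kept. Pairs were judged by direction alone. Mean CPM and the median SD had to move by less than a spread, and counts had to stay within a set fold. This total is no measure of stability, since many of these values could not have changed class. All 10 genes differed beyond counting noise under each of the 9 alternatives run for this count, those that left out a tumor included. The mean CPM of each gene stayed within 1 SD in 60 of 60 alternatives. Leaving out 1 of 4 tumors can hardly move a mean that far, so this says little about stability. The mean of Elovl6, whose SD tumor 1 widens, moved from 39.2 to 22.7 CPM without tumor 1. Centering on the epithelial list moved the median SD of the 10 genes from 0.42 to 0.75 (and that of all tested genes from 0.29 to 0.49) and the number of genes with a tumor apart from 1 to 0. With total counts that number was 2, Acaca and Me1. Leaving out 1 tumor gave a median SD of 0.36 (without tumor 1) to 0.50 (without tumor 4). Of 81 alternative values of the 9 pairs 80 kept their direction, and Srebf1 minus Srebf2 became -0.22 with no length. Many of these values could not reverse. Library scaling cancels within a tumor, and where all 4 tumors share a sign, leaving out 1 keeps it. Only the gene length and the prior count could turn a pair. The number of neighbouring pairs whose difference exceeded its SD, with alternatives chosen after seeing the data, was between 5 and 7, and without tumor 3 Elovl6 moved above Acaca. No paired analysis was possible because the 4 tumors form 1 group. Depth limits Acss2 most, with 79 to 141 counts, and for Elovl6 the value of tumor 3 rests on 76 counts. The share of all tested genes beyond counting noise was 53.5% with no filter and 85.3% with a mean of at least 10 CPM.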
